A study of Mus musculus with 36 samples.

Results

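The Trim gene cluster near Tpp1 is a row of 9 related genes (Trim12a, Trim12c, Trim30a, Trim30b, Trim30c, Trim30d, Trim34a, Trim34b and Trim5) between 104244457 and 104507849 on chromosome 7 of GRCm38, a span of 263.4 kb. The members were found by gene name in the count tables, which list 55450 genes at 1 month, 53379 at 2 months and 54146 at 3 months. They were picked for low values in Tpp1-/- mice of 1 and 2 months that were not seen at 3 months, so the differences between the genotypes in a member are given as descriptions: no p-value is printed for them, and the calls that the fit over all genes made among them are counted beside the share of all genes called, with nothing read from the count. The pattern held for some members only. Trim12a and Trim5 were at or close to 0 counts in the Tpp1-/- libraries of 1 and 2 months, Trim30d and Trim34a were low there, Trim12c and Trim30a were not, Trim34b went the other way, and Trim30b and Trim30c had too few counts to tell.

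TRIM proteins carry a RING finger, a B-box and a coiled coil, and many of them act as E3 ubiquitin ligases. Some members of this family also end in a SPRY domain, which in primate TRIM5 binds the capsids of incoming retroviruses, and the rodent Trim5, Trim12 and Trim30 genes are counterparts of primate TRIM5. Interferon induces several members, and Trim30a is known to restrain signalling from Toll-like receptors by acting on the TAB proteins that partner the kinase TAK1.

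RNA-seq libraries were made from the forebrain/midbrain (F/M) and the cerebellum (Cb) of Tpp1-/- and control mice of 1, 2 and 3 months, with 3 libraries in each of 12 groups and 36 libraries in all. Tpp1 encodes a lysosomal peptidase whose loss causes CLN2 disease, a neuronal ceroid lipofuscinosis of childhood, and the study followed how the brain transcriptome changes as the disease advances. The Tpp1-/- mice carried a Tpp1 gene disrupted by targeting, and the line was kept by crossing heterozygotes. Controls were labelled wild type, except that control replicate 3 of 1 month was Tpp1+/- in both regions. All mice of 2 months were male, and each group of 1 and 3 months held both sexes. The strain of the mice and of the targeted cells was not given in the sources used here.

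The libraries held 10609896 to 29942380 counts, with a median of 21049839. Summed cerebellar markers ran from 5220 to 6740 CPM (counts scaled to library size by the TMM method) in Cb and from 214 to 289 CPM in F/M, as the labels require. Tpp1 reads remained in the Tpp1-/- libraries, at 16.1 to 27.8 CPM. At 1 and 2 months the controls labelled wild type held 4.14 to 4.73 times the mean of the Tpp1-/- libraries of their age and region, and the Tpp1+/- libraries held 2.77 and 2.96 times that mean. The 6 control libraries of 3 months, all labelled wild type, held only 2.37 to 2.62 times. The level of Tpp1 in those libraries therefore goes against a wild-type label, and results of 3 months rest on them; the study's methods count Tpp1+/- mice among its wild-type mice. Since all 6 were alike, no value of 3 months could be given without them. Choroid plexus markers were higher in the Tpp1-/- libraries of 2 months, with 6 of 10 called in F/M and 5 of 10 in Cb, and microglial markers were higher at 3 months, with 1 of 10 called in F/M and 4 of 10 in Cb. The part of any of these in the values below was not tested.

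**Figure D1:**
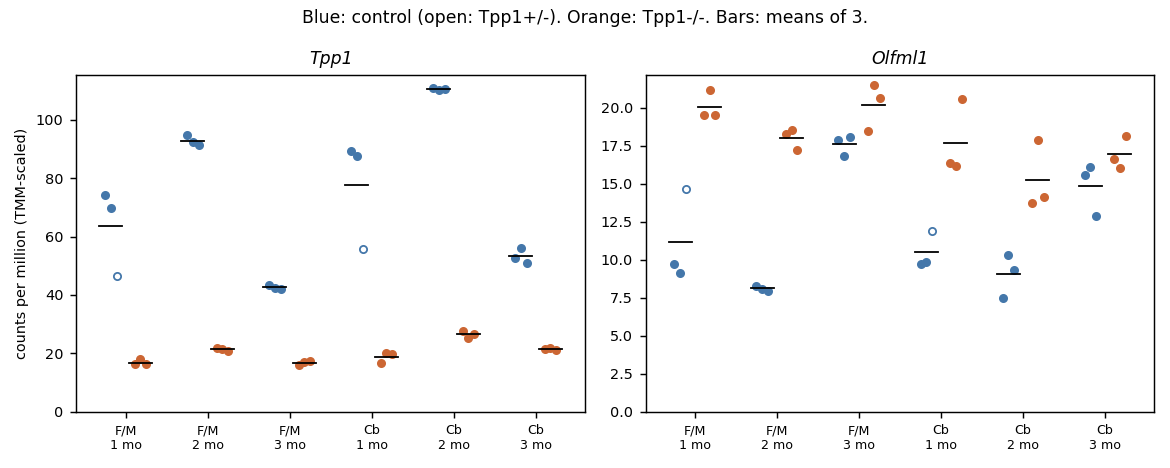
TMM-scaled CPM of Tpp1 (left) and of its neighbour Olfml1 (right) in 36 libraries by region and age (mo, months), with blue points for controls, open points for Tpp1+/-, orange points for Tpp1-/- and bars for means of 3. Tpp1 in the controls of 3 months lies near the Tpp1+/- points of 1 month. Olfml1 is separated between the genotypes in both regions at 1 and 2 months, and at 3 months narrowly in F/M but not in Cb.

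Some members are close copies, and the likeness of their promoters and of their transcripts did not run in parallel. RefSeq promoters (250 bases before to 50 after the start, GRCm38.p6) were at hand for all 9, Trim30a having 2. The Trim12a and Trim5 promoters shared an unbroken run of 241 bases, those of Trim30a and Trim30d a run of 118 bases, and Trim12c shared 71 bases with Trim12a and with Trim5. Most other pairs shared at most 11 bases, Trim34a and Trim34b among them. The interferon-response letters GAAANNGAA, searched on both strands, were found in the promoters of 7 members, against 8.56% of 32851 promoters of this length. Neither Trim30b nor Trim30c held them. The shorter letters AANNGAAA, which overlap the first, stood in 23.9% of all promoters. The 30 bases around the match are shown for the 7 members because they let the close copies be seen side by side: Trim12a, Trim5 and Trim12c are nearly letter for letter the same, as are Trim30a and Trim30d, and those of Trim34a and Trim34b differ. Capitals mark the match, which is the reverse complement of the letters searched.
Trim12a: gagttgtggtTTCTGTTTCatttccagagc
Trim5: gagttgtggtTTCTGTTTCatttccagagc
Trim12c: gagttgtggtTTCTGTTTCatttccagctc
Trim30a: gttctttagtTTCTTTTTCtcagttcctgc
Trim30d: gttctttagtTTCTTTTTCtcagttcctgc
Trim34a: ggtttggagtTTCAGTTTCttttctctgca
Trim34b: tccttctgccTTCTCTTTCctgtgccacca
The Trim12a window lies at chr7:104315465-104315494 on the minus strand, that of Trim5 at chr7:104288135-104288164 (minus) and that of Trim12c at chr7:104353358-104353387 (minus). Those of Trim30a and Trim30d lie at chr7:104465209-104465238 and chr7:104507870-104507899, both minus. Those of Trim34a and Trim34b lie at chr7:104244458-104244487 and chr7:104329250-104329279, both plus. The match of Trim34b began 211 bases before its start site, and the matches in the other printed windows lay between 48 bases before the start and 11 bases after it.

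Reads were 50 bases long. Of the 50-base words in the annotated transcripts of Trim34b, 56.8% were shared with another gene, and all of these were words of Trim34a. The share was 39.8% for Trim34a, 36.3% for Trim5, 33.0% for Trim12c, 10.4% for Trim12a, 7.49% for Trim30d and 5.98% for Trim30a, and it was under 1% for Trim30b and Trim30c. Counts of Trim34a, Trim34b, Trim5 and Trim12c are therefore uncertain as values of single genes. Antisense transcripts overlap Trim12a and Trim34a, and a pseudogene lies within Trim30d on the same strand.

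Compared per kilobase of annotated exon, Trim12c and Trim30a were the highest members in every control group. In the F/M controls of 2 months they stood at 0.728 ± 0.0367 and 0.815 ± 0.0470 CPM per kb (SD, n = 3), and the ranges of the 2 genes overlapped in every control group. Trim34a at 0.540 ± 0.0762, Trim30d at 0.456 ± 0.118 and Trim12a at 0.397 ± 0.0663 CPM per kb formed a middle group in which neighbours did not differ beyond their spread. Trim5 followed at 0.134 ± 0.0389 CPM per kb. Trim30b and Trim30c stood at 0.0201 ± 0.0143 and 0.0183 ± 0.0316 CPM per kb, and Trim34b had no count. Even the highest member was thus a gene of few reads, with at most 176 counts in a library. In brain tissue, fewer cells that express a gene and less RNA per cell cannot be told apart.

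**Figure D2:**
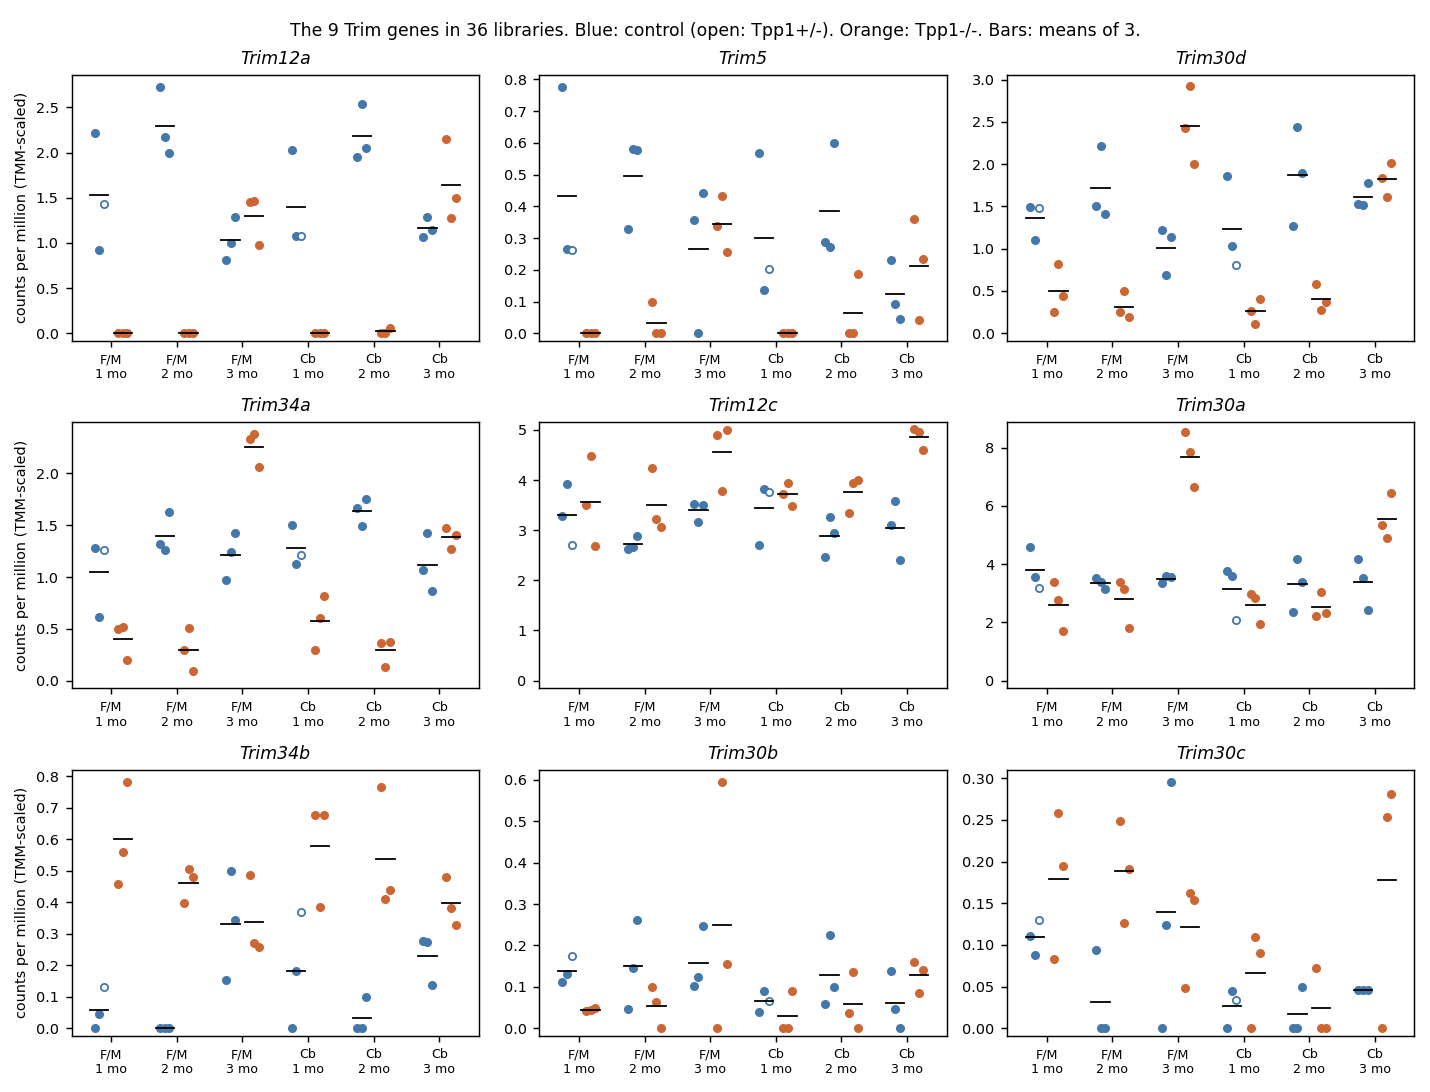
TMM-scaled CPM of each of the 9 Trim genes in 36 libraries by region and age (mo, months), with blue points for controls, open points for Tpp1+/-, orange points for Tpp1-/- and bars for means of 3. Trim12a lies at 0 in all but 1 of the Tpp1-/- libraries of 1 and 2 months and overlaps the controls at 3 months, while Trim34b has the opposite order at 1 and 2 months.

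Trim12a (ENSMUSG00000066258, chromosome 7, 104299894 to 104315466, minus strand), a copy of the Trim5 type, showed the widest gap. Its counts in F/M of 1 month were 40, 21 and 33 in control replicates 1, 2 and 3, and 0 in each of the 3 Tpp1-/- libraries. In Cb of 1 month the controls had 50, 24 and 32 counts and the Tpp1-/- libraries again 0 each. At 2 months the F/M controls had 58, 45 and 38 counts against 0 in every Tpp1-/- library, and the Cb controls had 34, 56 and 41 counts against 0, 0 and 1. A count of 0 still allows 3 counts per library, so the controls were at least 11.4-fold higher in F/M and at least 10.1-fold higher in Cb at 1 month, and at least 11-fold higher in F/M at 2 months. In Cb of 2 months the summed counts of the Tpp1-/- libraries were 0.00694 times those of the controls at equal depth, with an exact 95% interval of 0.000174 to 0.0393. These intervals cover counting error only.

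At 3 months Trim12a was present in all 12 libraries. The F/M controls had 16, 16 and 26 counts and the Tpp1-/- libraries 30, 27 and 19, and in Cb the controls had 23, 28 and 25 and the Tpp1-/- libraries 54, 30 and 32. The groups overlapped in both regions. On the CPM scale the controls of 3 months held 1.03 ± 0.235 in F/M and 1.16 ± 0.111 in Cb (SD, n = 3), below the controls of 2 months at 2.30 ± 0.384 and 2.18 ± 0.310, with no overlap in either region. The ages were counted and scaled separately, so these levels are set side by side with no test. Within the 1-month controls the wild-type replicate 1 had 2.22 CPM in F/M, against 0.925 in the wild-type replicate 2 and 1.43 in the Tpp1+/- library, and in Cb the values were 2.03, 1.08 and 1.07 CPM.

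Trim5 (ENSMUSG00000060441, 104263386 to 104288094, minus strand), the member named for the retroviral restriction factor, went the same way at a lower level. In F/M of 1 month the controls had 14, 6 and 6 counts and in Cb 14, 3 and 6 counts, and the 6 Tpp1-/- libraries had 0. The controls were at least 3.25-fold higher in F/M and at least 2.19-fold higher in Cb. At 2 months the F/M controls had 7, 12 and 11 counts against 2, 0 and 0, and the Cb controls 5, 6 and 12 against 0, 0 and 3. At 3 months 0 to 9 counts were found in the controls and 1 to 9 in the Tpp1-/- libraries, and the groups overlapped in both regions.

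Trim30d (ENSMUSG00000057596, 104470014 to 104507849, minus strand), a neighbour of Trim30a in sequence and position, was low but not absent. At 1 month in F/M it stood at 1.5, 1.10 and 1.48 CPM in the controls and at 0.25, 0.818 and 0.440 CPM in the Tpp1-/- libraries, a log2 fold change of -1.42 ± 0.44 (edgeR estimate ± SE). In Cb of 1 month the values were 1.86, 1.04 and 0.805 against 0.263, 0.110 and 0.407 CPM, a log2 fold change of -2.18 ± 0.49. Neither region had overlapping groups. At 2 months the log2 fold change was -2.39 ± 0.41 in F/M and -2.14 ± 0.35 in Cb, again without overlap. The order turned at 3 months in F/M, where the controls held 1.22, 0.684 and 1.13 CPM and the Tpp1-/- libraries 2.42, 2.92 and 2.01 CPM, a log2 fold change of 1.25 ± 0.25. In Cb of 3 months the groups overlapped, at 1.61 ± 0.147 and 1.82 ± 0.205 CPM (SD, n = 3).

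Trim34a (ENSMUSG00000056144, 104244457 to 104262234, plus strand), an interferon-responsive member, followed Trim30d. At 1 month in F/M the controls held 1.28, 0.617 and 1.26 CPM, above the 0.5, 0.516 and 0.195 CPM found without Tpp1. At 2 months in F/M the controls held 1.32, 1.26 and 1.62 CPM and the Tpp1-/- libraries 0.299, 0.505 and 0.0956 CPM, a log2 fold change of -2.09 ± 0.38. In Cb of 2 months the values were 1.67, 1.49 and 1.75 against 0.364, 0.136 and 0.375 CPM, a log2 fold change of -2.47 ± 0.35. No groups overlapped at 1 or 2 months. In F/M of 3 months the Tpp1-/- libraries were the higher group, at 2.33, 2.38 and 2.06 CPM against 0.968, 1.24 and 1.43 CPM, and in Cb the groups overlapped.

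Trim34b (ENSMUSG00000090215, 104329471 to 104336909, plus strand) had the opposite order. In F/M of 1 month the controls had 0, 1 and 3 counts and the Tpp1-/- libraries 11, 13 and 16, and in Cb the controls had 0, 4 and 11 and the Tpp1-/- libraries 18, 7 and 15. The highest control in each region was the Tpp1+/- library, and scaled to depth no group overlapped. At 2 months the F/M controls had no count and the Tpp1-/- libraries had 8, 8 and 5, at least 3.12-fold higher. The Cb controls had 0, 0 and 2 counts and the Tpp1-/- libraries 21, 9 and 7, a ratio of summed counts of 16.8 at equal depth with an exact 95% interval of 4.34 to 144. At 3 months both genotypes held counts in every library, 3 to 8 in the controls and 5 to 12 in the Tpp1-/- mice. Scaled to depth the groups overlapped in F/M, at 0.332 and 0.338 CPM, but not in Cb, at 0.230 and 0.396 CPM, where the ratio of summed counts was 1.74 (exact 95% interval 0.899 to 3.51).

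Because Trim34a and Trim34b share many 50-base words, their CPM were also summed. The sum was 1.11 ± 0.392 CPM in the F/M controls of 1 month and 1.00 ± 0.0635 CPM in the Tpp1-/- libraries, and the groups overlapped there and in Cb. At 2 months the sum was 1.40 ± 0.197 against 0.760 ± 0.225 CPM in F/M and 1.67 ± 0.178 against 0.828 ± 0.292 CPM in Cb, without overlap. At 1 and 2 months the pair together thus differed between the genotypes by a smaller factor than either gene did alone.

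Trim12c (ENSMUSG00000057143, 104338754 to 104353362, minus strand) did not share the low values, although it shares more 50-base words with Trim5 than any other member does. Its log2 fold change was 0.11 ± 0.22 in F/M and 0.11 ± 0.21 in Cb at 1 month, with overlapping groups. In F/M of 2 months the controls held 2.63, 2.66 and 2.88 CPM and the Tpp1-/- libraries 4.24, 3.22 and 3.06 CPM. The Tpp1-/- libraries were also the higher group in Cb of 2 months and in both regions of 3 months, without overlap, with log2 fold changes of 0.36 ± 0.17, 0.42 ± 0.17 and 0.68 ± 0.17.

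Trim30a (ENSMUSG00000030921, 104409025 to 104465193, minus strand), the restrainer of Toll-like receptor signalling named above, overlapped between the genotypes at 1 and 2 months, with log2 fold changes from -0.52 ± 0.28 to -0.21 ± 0.23. At 3 months the Tpp1-/- libraries were the higher group in both regions. The F/M controls held 3.36, 3.61 and 3.55 CPM and the Tpp1-/- libraries 8.54, 7.84 and 6.64 CPM, a log2 fold change of 1.13 ± 0.19. In Cb the controls held 4.18, 3.53 and 2.41 CPM and the Tpp1-/- libraries 5.34, 4.91 and 6.43 CPM, a log2 fold change of 0.72 ± 0.19. The groups did not overlap. The summed microglial markers, in the same libraries, reached 416 to 440 CPM (control) and 492 to 544 CPM (Tpp1-/-) in F/M, and 136 to 171 and 254 to 356 CPM in Cb; their part in the level of Trim30a was not tested.

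Trim30b (ENSMUSG00000052749, 104355382 to 104369884) and Trim30c (ENSMUSG00000078616, 104382065 to 104400837), both on the minus strand, did not pass the filter on low counts at any age. Trim30b had 0 to 5 counts in every library but 1, the F/M Tpp1-/- replicate 2 of 3 months with 11. Trim30c had 0 to 6 counts. The groups did not overlap for Trim30b in F/M of 1 month, where the summed counts of the Tpp1-/- libraries were 0.314 times those of the controls at equal depth (exact 95% interval 0.0546 to 1.26), or for Trim30c in F/M of 2 months, where the ratio was 5.93 (1.23 to 56.4). For Trim30c in Cb of 3 months the ratio was 3.73 (1.01 to 20.6) with overlapping groups. In the other comparisons of these genes the interval of the ratio included equal levels, so that no difference was detectable at this depth.

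**Figure D3:**
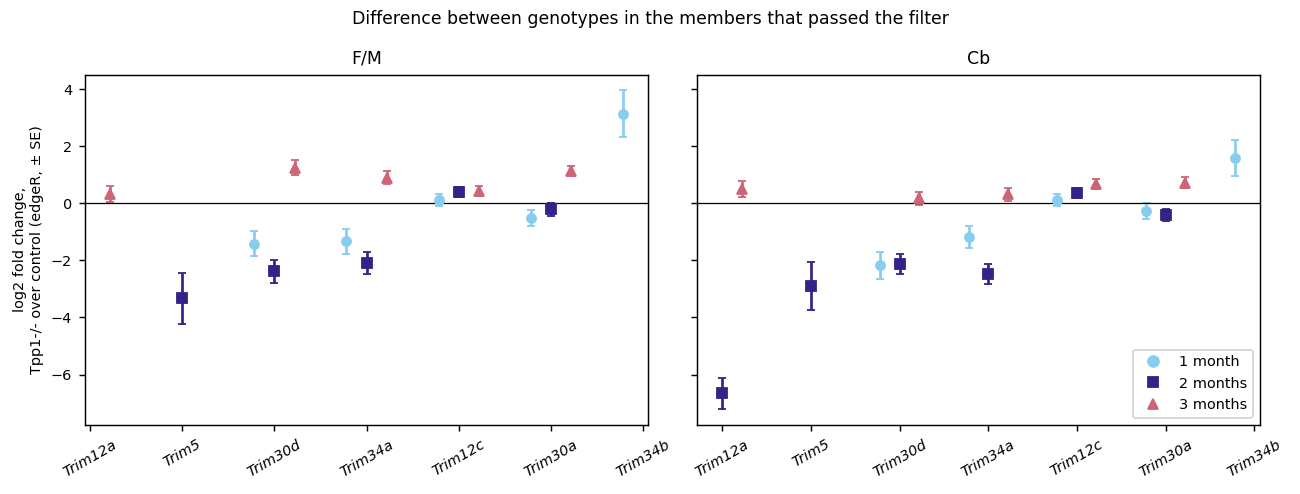
Log2 fold change of Tpp1-/- over control (edgeR estimate, bars ± SE, 3 against 3 libraries) for the Trim genes that passed the filter, by region and age, leaving out genes at 0 counts in a whole group. Trim5, Trim30d and Trim34a lie below 0 at 2 months, and the tested members of 3 months all lie above 0.

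Of the 9 members, 6 passed the filter at 1 month (Trim12a, Trim12c, Trim30a, Trim30d, Trim34a and Trim34b), 6 at 2 months (Trim5 in place of Trim34b) and 5 at 3 months. A gene was called when its adjusted p (edgeR's quasi-likelihood test with Benjamini-Hochberg adjustment over all genes tested) was under 0.1 and its fold change at least 1.5. At 1 month Trim12a was called lower in F/M and in Cb, where 0.0112% of all genes tested were called lower and 0.0% higher in each region. These single calls depended on most libraries: 0 members were called in F/M without control replicate 1 or 3 or any 1 of the Tpp1-/- libraries, and in Cb without control replicate 1 or 2 or Tpp1-/- replicate 1 or 2, whereas 4 were called in Cb without Tpp1-/- replicate 3. With the Tpp1+/- libraries left out of both regions at once, 0 were called in each. At 2 months Trim12a, Trim5, Trim30d and Trim34a were called lower in both regions, against 0.0871% of all genes lower and 0.65% higher in F/M and 1.8% lower and 0.25% higher in Cb. At 3 months Trim30a and Trim30d were called higher in F/M, against 0.412% higher and 0.0523% lower among all genes, and no member was called in Cb, where 0.673% of all genes were higher and 0.186% lower. DESeq2 called 2 members in that last comparison and limma-voom 0. Both calls in F/M of 3 months remained only without Tpp1-/- replicate 3, and leaving out any other library left 0. Only 1 member was called in F/M of 2 months without Tpp1-/- replicate 1. The members were selected on these contrasts, so the calls are not evidence apart from that choice.

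Summed over the 9 members, the cluster held 11.8 ± 1.83 CPM in the F/M controls of 1 month and 7.90 ± 1.71 CPM in the Tpp1-/- libraries (SD, n = 3). The corresponding values in F/M were 12.2 ± 0.261 and 7.64 ± 1.64 CPM at 2 months and 11.1 ± 1.01 and 19.3 ± 1.59 CPM at 3 months. In Cb they were 11.1 ± 1.44 and 7.80 ± 0.268, 12.4 ± 2.19 and 7.69 ± 0.285, and 10.8 ± 1.67 and 16.2 ± 1.23 CPM. The summed level did not overlap between the genotypes in any of the 6 comparisons. Full separation of 3 against 3 libraries has a p of only 0.1 in an exact two-sided rank test. The share of all genes that separate so was not counted. Since the members were picked on these values, nothing is read from the lack of overlap, here or for single members. Over the members tested, the median log2 fold change was -0.92 (F/M) and -0.73 (Cb) for mice of 1 month, -2.24 and -2.30 for those of 2 months, and 0.89 and 0.50 for those of 3 months. The median over all genes tested lay between 0.00 and 0.01. Trim34b entered only at 1 month (3.14 in F/M, 1.59 in Cb) and Trim5 only at 2 months (-3.33 and -2.9). The medians are thus over different genes and do not measure a change between the ages. Members were picked on this contrast, so nothing is read from their distance to the median of all genes.

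The comparison of the regions was not used to pick the members and can be tested. In controls of 1 and 2 months edgeR called no member between Cb and F/M (0 of 6 in the fit at each age, which at 1 month include Trim34b with counts too low to tell, 0 with an unadjusted p under 0.05, and 0 by DESeq2 or limma-voom), although 36.9% and 39.3% of all genes were called between the regions. Without Cb control replicate 1 of 1 month 1 member was called. With the replicate number as a block, which the correlation of same-numbered F/M and Cb libraries allows only for the controls of 1 month, Trim34b passed the threshold (log2 difference 1.57 ± 0.76 for Cb over F/M, adjusted p = 0.0982 by edgeR). That value rests on 0, 1 and 3 counts in F/M and 0, 4 and 11 in Cb, the highest of each from the Tpp1+/- libraries, and the gene passed the filter on low counts only through the Tpp1-/- libraries, so no difference between the regions is read from it. In controls of 3 months Trim30d was higher in Cb, at 1.61 ± 0.147 against 1.01 ± 0.289 CPM, a log2 difference of 0.64 ± 0.25 (edgeR adjusted p = 0.0471; 37.7% of all genes called). Its adjusted p ran from 0.0478 to 0.192 over 13 alternatives, and the call was lost without F/M control replicate 2, without Cb control replicate 3, and without the filter on low counts.

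In Tpp1-/- mice edgeR called no member between the regions at 1 month (0 of 5 with counts there) or 2 months (0 of 4). None had an unadjusted p under 0.05, and DESeq2 and limma-voom called 0, while 37.4% and 39.4% of all genes were called. Without F/M Tpp1-/- replicate 1 of 1 month 1 was called. Trim12a, and Trim5 at 2 months, were at the floor in both regions and are left out of these counts. Trim30d and Trim34a had only 1 to 19 counts in these libraries and were picked for low values there. Trim34b, tested at 1 month only, passed the filter only through these libraries. Nothing is read from the lack of a call on any of them, which leaves Trim12c and Trim30a. In Tpp1-/- mice of 3 months Trim34a was higher in F/M, at 2.26 ± 0.173 against 1.39 ± 0.105 CPM, a log2 difference of -0.70 ± 0.22 for Cb over F/M (edgeR adjusted p = 0.0173; 38.2% of all genes called). It was called in all 13 alternatives, with adjusted p from 0.0141 to 0.0560. Trim30a had an adjusted p of 0.0444 there with a log2 difference of -0.47 ± 0.18, short of the fold change of 1.5.

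Other genes around Tpp1 were not used to pick the members either, and 81 or 82 of those within 5 Mb passed the filter at each age. In mice of 1 month edgeR called 0 of 82 in each region, although 5 (F/M) and 13 (Cb) had an unadjusted p under 0.05; DESeq2 called 2 and 1, and limma-voom 0 and 0. At 2 months 1 of 82 was called in F/M and 4 of 82 in Cb (1.22% and 4.88%, beside 0.0871% of all genes lower and 0.65% higher in F/M and 1.8% lower and 0.25% higher in Cb). Within 2 Mb of Tpp1 the counts were 1 of 24 in F/M (4.17%) and 4 of 24 in Cb (16.7%), with 0 of 58 at 2 to 5 Mb, 0 of 83 at 5 to 10 Mb and 3 of 132 (2.27%) at 10 to 20 Mb in each region. At 3 months 0 of 81 were called in either region by edgeR, DESeq2 or limma-voom, with 6 and 8 at an unadjusted p under 0.05. At 1 month 3 neighbours were called in Cb without Tpp1-/- replicate 3 and 1 in F/M without control replicate 3, in F/M of 2 months 2 were called without control replicate 1 or 2, and in Cb of 3 months 2 without Tpp1-/- replicate 1 and 1 without replicate 2.

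Olfml1 (chromosome 7, 107567446 to 107591094), which encodes an olfactomedin-like protein and lies 1.82 Mb from Tpp1 on the side away from the Trim genes, had a higher level in the Tpp1-/- libraries. Its values in F/M of 2 months stood at 8.28, 8.07 and 7.96 CPM in the controls and at 18.3, 18.5 and 17.2 CPM in the Tpp1-/- libraries, a log2 fold change of 1.15 ± 0.12 (edgeR adjusted p = 9.32e-05). In Cb the log2 fold change was 0.75 ± 0.12 (edgeR adjusted p = 0.000788). Both calls held in all 12 alternatives. At 1 month the gene was not called (log2 fold change 0.84 ± 0.16 in F/M, edgeR adjusted p = 0.682). There the Tpp1+/- library held 14.7 CPM in F/M, between the wild-type controls at 9.71 and 9.12 CPM and the Tpp1-/- libraries at 19.5, 21.1 and 19.5 CPM.

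At 3 months Olfml1 was not called, and the F/M controls had 17.6 CPM on average against 20.2 CPM in Tpp1-/- mice. The genotype effect of 3 months was lower than that of 2 months by 0.95 ± 0.20 on the log2 scale in F/M (model of 36 libraries, edgeR adjusted p = 0.0276; 0.393% of all genes called without a fold minimum), and Olfml1 was the only one of 89 neighbours called. The call was lost without Tpp1-/- replicate 1 of 2 months or of 3 months. In the same test 0 of 89 were called for 3 against 2 months in Cb (1.44% of all genes; 5 at an unadjusted p under 0.05; DESeq2 1, limma-voom 0), 0 for 3 against 1 month in F/M (0.153%; 5; 0 and 0) and 0 for 3 against 1 month in Cb (0.458%; 10; 0 and 0). Without Cb Tpp1-/- replicate 1 of 3 months the last count was 14, and without F/M control replicate 3 of 1 month the one before it was 1. For 3 against 2 months in Cb the count was 1 without Tpp1-/- replicate 1 of 2 months, or without control replicate 1 or 3 or Tpp1-/- replicate 2 or 3 of 3 months.

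The other neighbours were called lower only in Cb of 2 months, although differences of like size recurred without a call at other ages for Dchs1 and Gm8995. Cckbr, the receptor for cholecystokinin in the brain, 0.274 Mb from Tpp1, averaged 3.02 CPM in the controls against 1.05 CPM without Tpp1, a log2 fold change of -1.46 ± 0.21 (edgeR adjusted p = 0.000274). Dchs1, a large cadherin of planar cell polarity and the next gene to Tpp1, had a log2 fold change of -0.65 ± 0.10 (edgeR adjusted p = 0.000546), beside -0.51 ± 0.14 in Cb of 1 month and -0.66 ± 0.20 in Cb of 3 months and -0.49 ± 0.13, -0.26 ± 0.10 and -0.43 ± 0.20 in F/M of 1, 2 and 3 months. The predicted gene Gm8995, 0.752 Mb away, had one of -0.96 ± 0.23 (edgeR adjusted p = 0.0261, with 9.58e-05 to 0.185 over 12 alternatives), and its call was lost without Cb control replicate 2 or Tpp1-/- replicate 1. At 1 month its log2 fold change was -1.29 ± 0.28 in F/M and -1.11 ± 0.28 in Cb, neither called, and at 3 months it was -0.02 ± 0.21 and -0.28 ± 0.21. Cckbr had -0.45 ± 0.10 in F/M of 2 months (45.0 against 33.0 CPM, edgeR adjusted p = 0.0404), short of the fold change of 1.5, and 0.24 ± 0.18 in Cb of 1 month and -0.36 ± 0.25 in Cb of 3 months. In those Cb libraries of 2 months, summed midbrain and thalamus markers reached 158 to 166 CPM in the controls but 106 to 118 CPM in the Tpp1-/- libraries, with 5 of 10 called lower. Their part in these values was not tested.

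**Figure D4:**
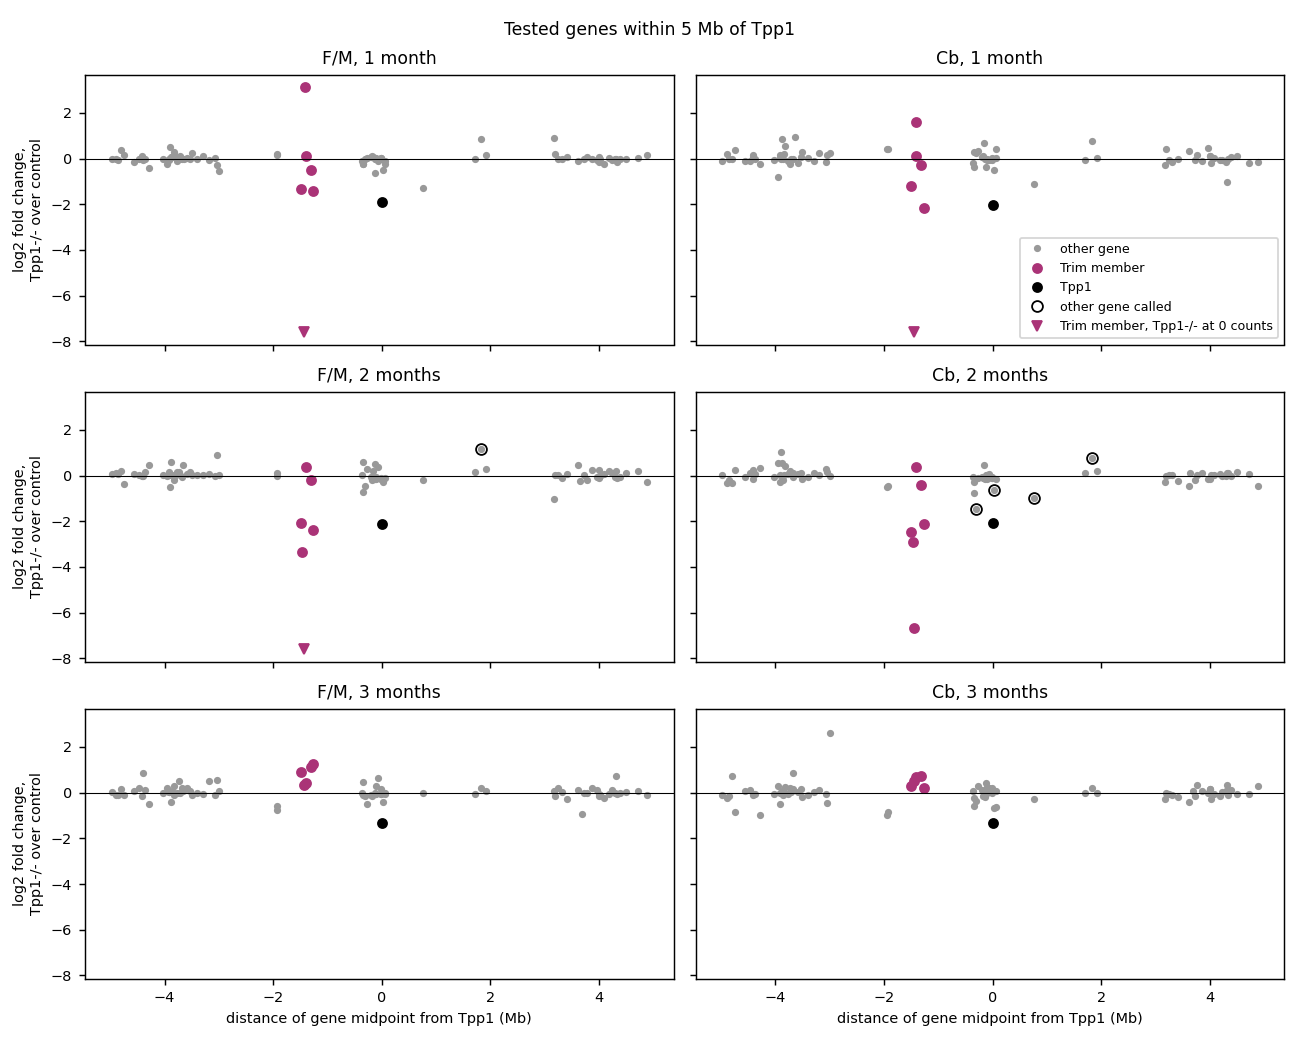
Log2 fold change of Tpp1-/- over control (edgeR estimate, 3 against 3 libraries) for the tested genes within 5 Mb of Tpp1, plotted by the distance of each gene's midpoint from that of Tpp1 in Mb, with triangles near the lower edge for Trim12a where its Tpp1-/- libraries were at 0 counts and rings for other genes called. At 1 and 2 months some Trim genes lie far from 0 while Trim12c and Trim30a lie near it, and at 3 months all 5 tested Trim genes lie above 0.

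Away from the cluster, 37 other Trim genes passed the filter at each age, and edgeR called none of them in any of the 6 comparisons of the genotypes; 1 to 6 of 37 per comparison had an unadjusted p under 0.05, and DESeq2 and limma-voom called 0 in each. A single other Trim gene was called without F/M control replicate 1 of 2 months, without F/M Tpp1-/- replicate 3 of 3 months, and without Cb control replicate 3 or Cb Tpp1-/- replicate 2 of 3 months. Their median log2 fold change lay between -0.06 and 0.03.

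Genes of the interferon response, to which the family belongs, were called in none of the comparisons of 1 and 2 months (0 of 33 by edgeR, DESeq2 and limma-voom; 0 to 4 at an unadjusted p under 0.05; 1 of 33 in F/M of 2 months without control replicate 2). At 3 months 19 of 36 were higher in F/M and 6 of 36 in Cb, and none was lower. Among all genes tested, 0.412% and 0.673% were called higher. Cxcl10, Mx1 and Zbp1 failed the filter on low counts at 1 and 2 months. At 3 months their controls held at most 0.413 CPM, so they passed it only through the Tpp1-/- libraries. All 3 are among the calls in F/M, and Cxcl10 and Mx1 are among those in Cb. They are also part of the medians that follow. The median log2 fold change of the list was 1.07 in F/M and 0.48 in Cb, beside 0.00 over all genes. In the same F/M libraries summed midbrain and thalamus markers were 202 to 209 CPM in the controls and 137 to 158 CPM in the Tpp1-/- group (1 of 10 called lower), and summed blood markers were 69.3 to 77.7 and 34.0 to 56.2 CPM (0 of 5 called); the microglial sums are given with Trim30a above. Their part in the interferon genes was not tested. Cxcl10, a chemokine induced by interferon, held 0.260 CPM in F/M controls and 3.18 CPM in Tpp1-/- libraries (log2 fold change 3.55 ± 0.50). No p-value is given for it, since it passed the filter only through the Tpp1-/- libraries. Oasl2, of the oligoadenylate synthetase family, rose from 4.13 to 13.6 CPM in F/M (1.72 ± 0.20, edgeR adjusted p = 0.00139), and Lgals3bp, a secreted glycoprotein, from 14.3 to 40.5 CPM (1.5 ± 0.12, edgeR adjusted p = 1.72e-05). Oas2, Usp18, Ifi44 and Ifit1 were also called in F/M, with log2 fold changes from 1.61 to 2.13. So were Mx1 (3.26 ± 0.47), Zbp1 (2.25 ± 0.49) and Ifi204 (2.25 ± 0.39), which at 3 months passed the filter only through the Tpp1-/- libraries. The controls of Ifi204 averaged 0.362 CPM in F/M and 0.337 CPM in Cb at that age. Leaving out control replicate 1 or 2 or Tpp1-/- replicate 2 brought the count in F/M to 11, and leaving out Tpp1-/- replicate 1 brought it to 12. In Cb it came to 2 when control replicate 1 was dropped, and to 3 when control replicate 3 or Tpp1-/- replicate 3 was. Fitting the 6 libraries of a comparison alone gave 29 in F/M and 1 in Cb.

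Of the genes of TAK1 and Toll-like receptor signalling, the pathway on which Trim30a acts, edgeR called none at 1 month (0 of 26) or 2 months (0 of 25), where 0 to 7 per comparison had an unadjusted p under 0.05 and DESeq2 and limma-voom called 0. At 3 months 1 of 26, Tlr2, a receptor for bacterial lipoproteins, was higher in both regions (log2 fold change 1.35 ± 0.27 in F/M and 1.34 ± 0.25 in Cb, edgeR adjusted p = 0.0512 and 0.0238). When single libraries were left out, the Tlr2 call in F/M remained only without control replicate 3, and that in Cb was lost without control replicate 1. The call in Cb was also lost with the 6 libraries of the comparison alone.

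Correlations between the members largely restate the genotype gaps on which they were picked, and nothing further is read from them. Over the 36 libraries, with log2 CPM centred within each age and region, Trim12a, Trim30d and Trim34a had pairwise Pearson correlations of 0.88 to 0.89, Trim30a had 0.44 to 0.55 with these 3 genes, and Trim12c had -0.35 to -0.21 with them. Among 16708 other genes the values most like the mean of the 5 members tested at all ages were those of Slitrk5 (r = 0.67), Tpp1 (0.66), 9330179D12Rik (0.63), Gm8995 (0.62), Kcnj2 (0.61), Gm20655 (0.59), Gda (0.58), Trhr2 (0.57), Gm10419 (0.56) and Lrrtm4 (0.55). Apart from Tpp1 itself, Gm8995 was the only 1 of these on chromosome 7. These libraries share the split into genotypes, and its part in the likeness of Tpp1 and of the other genes was not tested. Olfml1 stood at the other end, with r = -0.73, and was singled out after its value was seen.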

How the data were processed

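Raw counts of reads per gene, without any normalization, were deposited by the authors. Libraries were made with a stranded mRNA kit per the labels, and single-end reads of 50 bases were aligned to mm10 with STAR 2.5.2b per the paper's methods. Per the file headers, genes were counted with featureCounts 1.6.3 (GENCODE M21, strand setting 1) at 1 month, 1.6.2 (M16, setting 2) at 2 months and 1.6.2 (M18, setting 1) at 3 months. An option to split multi-mapping reads into fractions is listed there, but every value is whole. How reads shared by paralogs were split is therefore unclear, and each age was fitted by itself.

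Genes passing filterByExpr (17916, 17229 and 17224) were tested with edgeR 4.0.16 in R 4.3.3 (TMM, quasi-likelihood F test, two-sided); 18322 genes entered the 36-library model of the ages. The fits were checked on simulated counts. A group at 0 counts was set to 3 counts per library for a bound. Alternatives were DESeq2 1.42.0, limma-voom (limma 3.58.1), RLE size factors, no filter, no fold minimum, the 6 libraries of a comparison alone, a sex covariate, a replicate block, windows of 2 and 10 Mb and each library left out. Same-numbered control and Tpp1-/- libraries did not all correlate above 0.1 in any comparison, and F/M and Cb libraries did so only in controls of 1 month (0.124 to 0.198 over genes). Named genes are the members, Tpp1, called genes within 5 Mb, called genes of 3 lists (at most 10 each) and the 10 genes most like the members. The members and lists were chosen with earlier results of these data known. The methods name biological triplicates but do not say which libraries share a mouse; sex and genotype labels match by replicate number between F/M and Cb, so both regions may come from the same mice.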

Additional observations from a re-analysis of the deposited data

Results flagged for a closer look

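Olfml1, a neighbour of Tpp1 and no member of the Trim cluster, differed in its genotype effect between the ages in F/M. The log2 fold change of Tpp1-/- over control was lower at 3 months than at 2 months (difference -0.95 ± 0.20, edgeR adjusted p = 0.0276 in the model of 36 libraries). All 3 Tpp1-/- libraries lay above all 3 controls in F/M at both ages, at 17.2 to 18.5 against 7.96 to 8.28 CPM at 2 months and at 18.4 to 21.5 against 16.8 to 18.1 CPM at 3 months. Groups of 3 were not searched for single libraries far from the others.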

How the results depend on the processing

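Low counts limit all members: 3 counts in a library equalled 0.101 to 0.287 CPM. Of 525 recalculations of log2 values of single genes, 474 did not change materially, 46 moved by more than the spread between replicates, 5 lost a call (Trim30d between the regions 3 times, Gm8995 2 times) and 0 turned a called direction. Members were held to size alone in the comparison of the genotypes, so their lost calls, and that of Olfml1 between the ages, appear only in the counts that follow. Without the filter on low counts, 3 members were called in each region of 1 month and 1 in Cb of 3 months, 1 between the regions in Tpp1-/- mice of 2 months and 0 between the regions in controls of 3 months. The same setting called 2 and 3 neighbours of Tpp1 at 1 month (F/M and Cb), 3 in F/M of 2 months, 1 and 3 at 3 months, 1 other Trim gene in Cb of 2 and of 3 months and 1 interferon gene in F/M of 2 months. For the effect of 3 against 2 months it called 5 (F/M) and 1 (Cb), and for 3 against 1 month 3 and 2. DESeq2 called 2 and 1 neighbours at 1 month, 2 members in Cb of 3 months and 1 neighbour for 3 against 2 months in Cb; it gave no adjusted p for the 4 members called in F/M of 2 months. Without a fold minimum, F/M of 2 months held 2 neighbours, 1 other Trim gene, 1 interferon gene and 1 Toll-like receptor pathway gene, and Tpp1-/- mice of 3 months 2 members between the regions. With the 6 libraries of a comparison alone, 29 interferon genes and 2 neighbours were called in F/M of 3 months, and 1 interferon gene and 0 pathway genes in Cb. Without the heterozygous controls of 1 month, 0 members were called in each region and 1 neighbour in F/M. The cause of these changes was not tested. The replicate block gave 1 member between the regions in controls of 1 month and 1 in F/M of 3 months, against 2; the numbers pair only the 1-month controls, and the block changed no other count by over 1.5 times. Leaving out each library in turn gave 0 to 1 and 0 to 4 members at 1 month (F/M and Cb), 1 to 4 and 3 to 5 at 2 months, 0 to 2 and 0 to 0 at 3 months, and 0 to 1 between the regions. It gave 0 to 1 and 0 to 3, 1 to 2 and 3 to 4, and 0 to 0 and 0 to 2 neighbours at 1, 2 and 3 months, 0 to 1 neighbours for the ages except 0 to 14 for 3 against 1 month in Cb, 0 to 1 other Trim genes, 0 to 1 pathway genes, and 11 to 18 and 2 to 7 interferon genes at 3 months, with 0 to 1 before. Windows of 2 and 10 Mb left the counts of neighbours as they were.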
